A study of Bos taurus with 2 samples.

Results

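The 7 sirtuin genes and 3 genes of nicotinamide adenine dinucleotide (NAD) synthesis were compared between the fetal muscle of undernourished and well-nourished cows. The 10 genes were *SIRT1* to *SIRT7*, *NAMPT*, *NMNAT1* and *NMRK2*, and their probes were those whose transcript accession is assigned to these symbols in the bovine gene table, which gave 26 probes of the 43652 on the array and 10 of its 26714 genes. Probes without a symbol there were grouped by transcript, and each such transcript was counted as a gene, here and below. All 10 genes were found, each with 1 to 4 probes that gave a value.

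During gestation and before it, Japanese Black cows received either 60% of their requirement, the low-nutrition (LN) diet, or 120% of it, the high-nutrition (HN) diet. The longissimus thoracis (LT) muscle of their fetuses was taken from the right side of the carcass at 8.5 months, around day 260 of gestation, and all dams had been inseminated with semen of 1 sire that was sorted for males. For each diet, total RNA of 4 fetuses was pooled and hybridized to 1 one-color Agilent bovine array. The HN pool held the fetuses with the highest bodyweight (BW) and the LN pool those with the lowest, so that diet and selection by BW cannot be told apart. Each diet was thus read by 1 array, which allowed neither a replicate check nor a p-value. LN and HN stand below for the 2 pools, and every difference is that of LN from HN on the log2 scale of normalized signal unless said otherwise.

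Sirtuins are enzymes that remove acetyl and other acyl groups from lysines of proteins, or transfer ADP-ribose to them, and they consume NAD in each reaction. Their activity thus depends on the supply of NAD, and they are known in muscle for linking the energy state of the fibre to transcription and to mitochondrial oxidation. SIRT1, SIRT6 and SIRT7 are mainly nuclear, SIRT2 is mainly cytosolic, and SIRT3, SIRT4 and SIRT5 are mitochondrial. NAD is rebuilt from nicotinamide by NAMPT, which makes nicotinamide mononucleotide, and NMNAT1, which converts the mononucleotide to NAD in the nucleus. NMRK2, a kinase expressed mainly in muscle, makes the same mononucleotide from nicotinamide riboside.

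The software called 74.5% of the HN spots and 70.9% of the LN spots well above background, and no spot was saturated. The tissue label was borne out by its markers, since all 11 muscle fibre genes on the array were detected, with *ACTA1* at 17.57 in HN and 17.53 in LN. The muscle markers had a median log2 LN/HN of -0.14, and their summed linear signal was 575540 in HN and 533330 in LN. Markers of other cells also differed between the pools. The neutrophil markers had a median of 0.72 over 10 genes, of which 7 were higher past 1.25-fold and 1 was lower, and their summed linear signal was 1495 in HN and 2574 in LN, with 1 further marker not detected. The fibroblast markers had a median of 0.34 (summed signal 20771 in HN and 25396 in LN, 6 genes), the macrophage markers -0.32 (6152 and 4860, 6 genes) and the endothelial markers -0.23 (6392 and 5104, 7 genes). The erythroid markers had a median of -0.11 (24309 and 23446, 6 genes, 2 others not detected) and the adipocyte markers 0.22 (461 and 570, 3 genes, 1 other not detected). The part of these cells in the values that follow was not tested, and in bulk tissue fewer cells of a type and less RNA per cell cannot be told apart.

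None of the 10 genes differed between the pools by more than 1.25-fold, the threshold used here for a difference in either direction. Over all 19554 genes with a value, transcripts without a symbol included, 18% were past this threshold, 8.85% being higher and 9.11% lower in LN. The gene values, each the mean log2 LN/HN over the probes of the gene, ran from -0.26 for *SIRT7* (-0.09 without a probe that was dim in LN) to 0.16 for *SIRT6*, with 4 genes higher and 6 lower in LN. Their median was -0.03, against -0.0033 over all genes, and their median absolute value was 0.074, against 0.14 over all genes. As a measure of the error of a spot, the log2 ratio of replicate spots of the same probe had an SD of 0.086 over 42 replicated probes. Of the 10 genes, 6 lay within 1 such SD of 0 and 8 within its 95% range of 0.17. The other two were *SIRT2* and *SIRT7*, and *SIRT7* lay inside this range, at -0.09, when only probes above background on both arrays were used. This SD is the scatter between spots of a probe on the same arrays, so it leaves out differences that those spots share. The 8 spike-in RNAs had log2 LN/HN from -0.12 to 0.05 before normalization. These pools do not give the variation between fetuses.

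**Figure D1:**
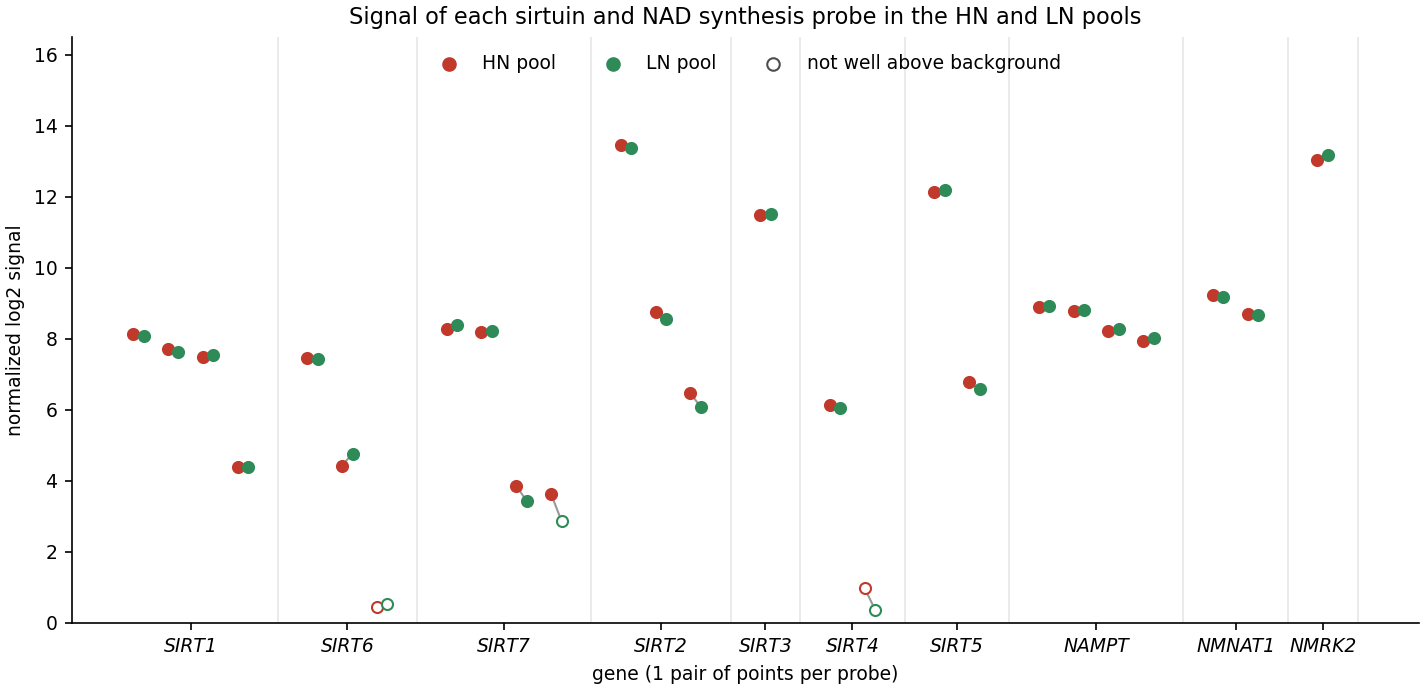
Normalized log2 signal (y axis) of each of the 26 probes in HN (red) and LN (green), grouped by gene along the x axis, with open circles for signals not well above background. The points of a pair overlap for most probes, and the wider gaps are in dimmer probes of *SIRT6*, *SIRT7*, *SIRT2* and *SIRT4*, that of *SIRT4* (0.97 in HN and 0.37 in LN) being between open circles and giving no fold.

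Of the 26 probes, 23 were well above background on both arrays, 1 in HN only and 2 in neither, which left 24 probes with a value. The probes were evenly divided, with 12 higher and 12 lower in LN, and 16 of them differed by less than 0.1 on the log2 scale. Past 1.25-fold were 4 of the 24 (16.7%), 1 of *SIRT6* in the direction of LN and 3 of *SIRT2* and *SIRT7* in the direction of HN. Over all 31986 probes with a value, 18.6% were past it, 9.11% higher and 9.44% lower, so the share in these genes was close to that of the array. None of the 23 probes measured on both arrays was past 2-fold, and the probe above background in HN only was treated as a limit. The error of a log2 ratio that follows from the signal errors given by the software was between 0.20 and 0.38, with a median of 0.20. The difference was smaller than 1 such error in 19 of the 24 probes and larger in 5. In 1 of them, a probe of *SIRT2*, it was larger by less than the second decimal (-0.20 against 0.20). It was beyond the 95% range of the error in 1, the *SIRT7* probe treated as a limit.

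Among the nuclear sirtuins, the probes of *SIRT1* were nearly equal in both pools. *SIRT1* encodes the deacetylase of histones and of transcription regulators such as PGC-1alpha and FOXO proteins. Its brightest probe measured 8.13 in HN and 8.08 in LN, a difference of -0.05 ± 0.20 (software error). The next 2 probes lay on either side of 0, at 7.70 and 7.64 (-0.06) and at 7.48 and 7.54 (0.06). The dimmest read 4.39 in both pools. The gene value was -0.01, with an SD of 0.06 over the 4 probes, which are readings of the same pools and not replicates of a diet.

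*SIRT6* encodes a chromatin-bound deacylase known for its roles in DNA repair and in the repression of glycolytic genes. Its bright probe measured 7.46 in HN and 7.44 in LN (-0.02 ± 0.20), whereas a dimmer one measured 4.43 and 4.77 (0.34 ± 0.24), a 1.26-fold higher signal in LN. The gene value of 0.16 (SD 0.26, 2 probes) thus came from the dimmer probe alone. The remaining probe was not well above background on either array and gave no fold.

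*SIRT7* encodes the sirtuin of the nucleolus, where it acts on the transcription of ribosomal RNA genes, and its probes spread the widest of the 10 genes. The bright probes were on the side of LN by less than their error, at 8.26 in HN and 8.39 in LN (0.13 ± 0.20) and at 8.20 and 8.22 (0.02 ± 0.20). The dim probes were lower in LN, at 3.85 and 3.43 (-0.43 ± 0.33) and at 3.62 and 2.86. The last of these was not well above background in LN, but its signal there was not raised. Its measured ratio, 1.69-fold higher in HN (-0.76 ± 0.38), was treated as a limit, and the gene mean includes it. The mean of the 4 probes was -0.26 with an SD of 0.41, and it was -0.09 with only the probes above background on both arrays and -0.14 in the authors' normalized values, both nearer to 0 than the value of *SIRT2*. The mean of the 2 dim probes was -0.59 and that of the 2 bright probes was 0.08, so the direction of *SIRT7* depended on which probes were read. The nuclear sirtuins together, 1 higher and 2 lower, had a median of -0.01.

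*SIRT2*, which encodes the cytosolic deacetylase of tubulin and of metabolic enzymes, was lower in LN in all 3 of its probes. The brightest probe measured 13.46 in HN and 13.37 in LN (-0.09 ± 0.20), the intermediate one 8.75 and 8.54 (-0.20 ± 0.20), and the dimmest 6.46 and 6.07 (-0.39 ± 0.21). Only the dimmest was past 1.25-fold, at 1.31-fold, and the size of the difference was larger the dimmer the probe. The gene value was -0.23 (SD 0.15, 3 probes), a 1.17-fold difference, and 15.2% of all genes were as low or lower. All probes were lower in LN in 25.3% of the 1679 genes with 3 probes measured on both arrays, and in 8.58% of them the mean was also at or below that of *SIRT2*.

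**Figure D2:**
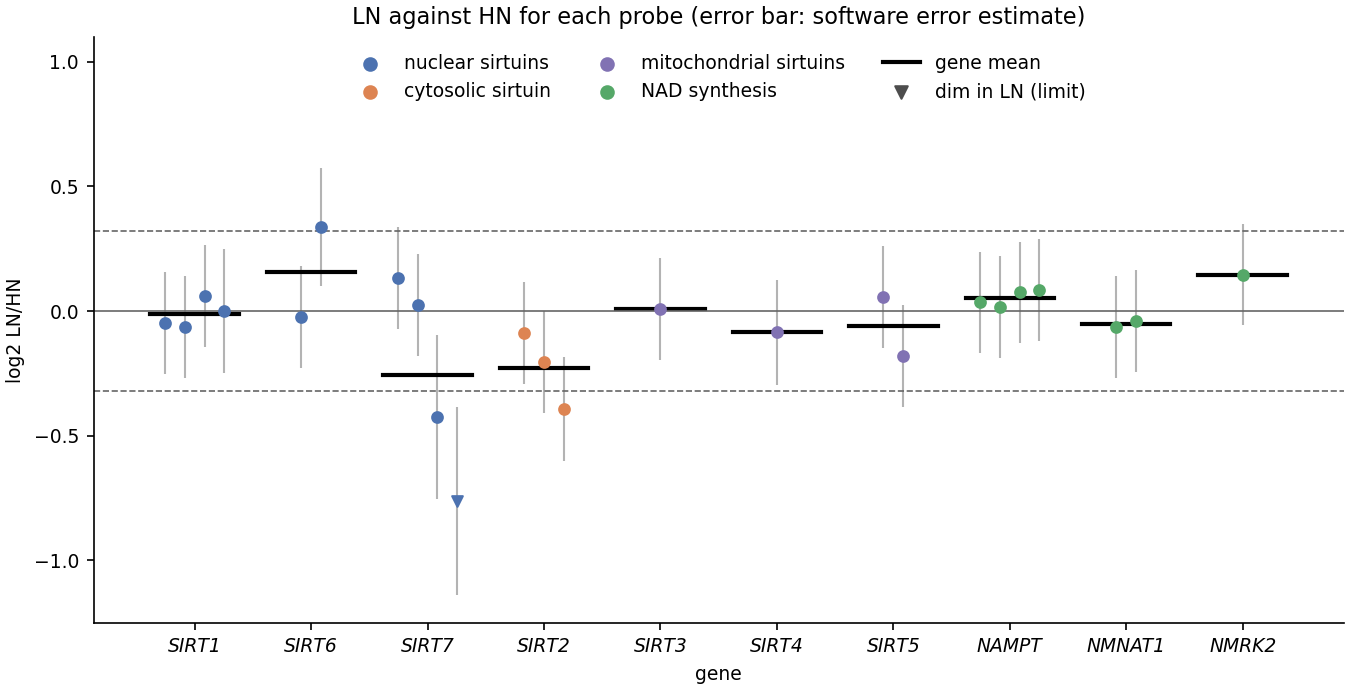
Log2 LN/HN (y axis) of each probe with its software error (bars), by gene (x axis), with gene means as black lines and the 1.25-fold threshold as dashed lines. The means of all 10 genes lie between the dashed lines, all 3 probes of *SIRT2* lie below 0 and all 4 of *NAMPT* lie above it. The probes of *SIRT7* lie on both sides, the triangle marking a probe that was dim in LN and is treated as a limit.

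None of the mitochondrial sirtuins had a gene value farther than 0.1 from 0. *SIRT3*, which encodes the main deacetylase of the mitochondrial matrix, was read by a single bright probe at 11.49 in HN and 11.50 in LN (0.0069 ± 0.20). *SIRT4*, which encodes a mitochondrial sirtuin known to inhibit glutamate dehydrogenase, had 1 probe above background, at 6.13 and 6.04 (-0.09 ± 0.21). Its other probe was not well above background on either array. *SIRT5* encodes the enzyme that removes succinyl, malonyl and glutaryl groups, and its probes measured 12.13 and 12.18 (0.06 ± 0.20), and 6.77 and 6.59 (-0.18 ± 0.21). These lay on both sides of 0, and the gene value was -0.06 (SD 0.17, 2 probes). With 1 gene higher and 2 lower, the mitochondrial sirtuins had a median of -0.06. Over all 7 sirtuins, 2 were higher and 5 lower in LN, with a median of -0.06 and no gene past 1.25-fold, while 50.7% of all genes were lower.

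Among the genes of NAD synthesis, *NAMPT* and *NMNAT1* had close readings between probes, while *NMRK2* had a single probe. *NAMPT*, which encodes the rate-limiting enzyme of the salvage of nicotinamide, had 4 probes of similar brightness, and each was slightly higher in LN. They measured 8.89 and 8.93 (0.03), 8.79 and 8.80 (0.02), 8.21 and 8.28 (0.07), and 7.94 and 8.02 (0.08), in the HN and LN pools respectively, each with a software error of 0.20. The gene value was 0.05 (SD 0.033), a 1.04-fold difference that is smaller than the SD of a replicate spot. All probes were higher in 23.4% of the 632 genes with 4 probes measured on both arrays. The probes of *NAMPT* spanned 0.069 on the log2 scale, against a median span of 0.27 in these genes, of which 2.85% had a span as small. These genes were not matched for signal. Over all probes the SD of log2 LN/HN was 0.42 at a log2 signal of 2 to 4 and 0.21 at 8 to 9.

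*NMNAT1* was lower by about the same amount as *NAMPT* was higher. Its probes measured 9.24 in HN and 9.17 in LN (-0.06 ± 0.20), and 8.70 and 8.66 (-0.04 ± 0.20), which gave a gene value of -0.05 (SD 0.016, 2 probes). Its probes spanned 0.022, and 10.6% of the 3401 genes with 2 probes measured on both arrays, again not matched for signal, had a span as small. *NMRK2* had 1 bright probe, at 13.04 in HN and 13.18 in LN (0.15 ± 0.20), a 1.11-fold higher signal in LN, and 23.2% of all genes were as high or higher. The median of the 3 genes was 0.05, with 2 higher and 1 lower. The genes of the nicotinamide and riboside routes were thus on the side of LN and that of the nuclear adenylyltransferase on the side of HN, all by less than the software error of a probe.

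**Figure D3:**
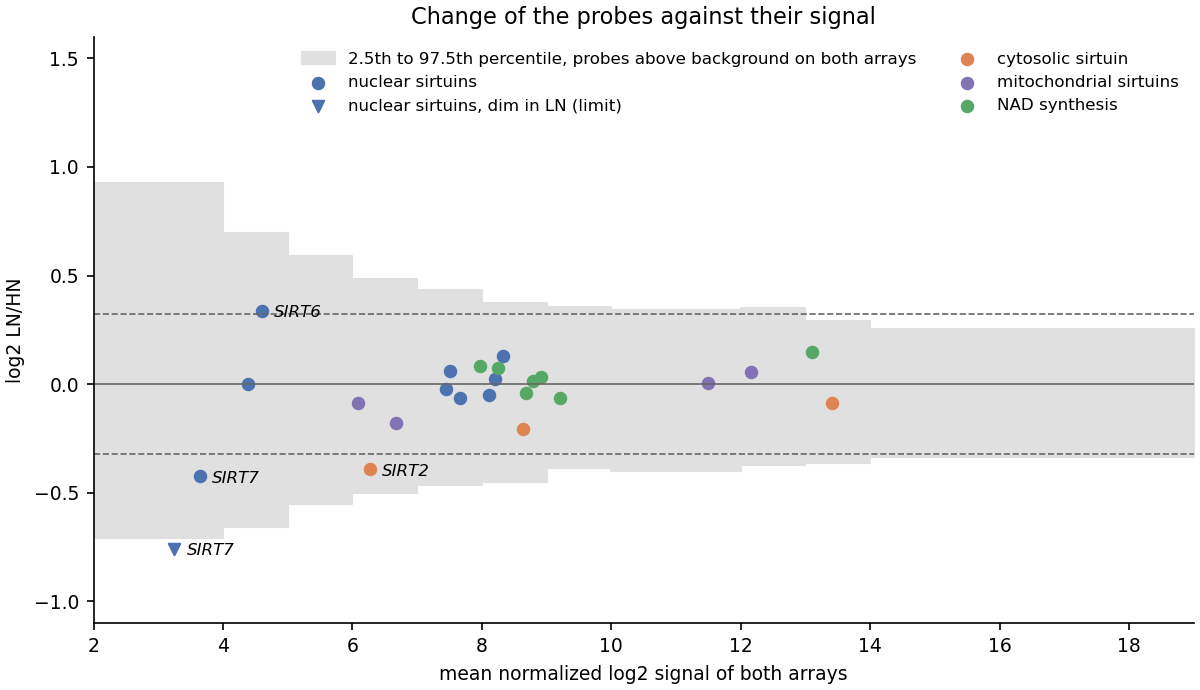
Log2 LN/HN of the 24 probes (y axis) against their mean normalized log2 signal (x axis), with the range that holds the central 95% of all probes above background on both arrays in grey and the 1.25-fold threshold as dashed lines. The labelled probes are past the threshold, all with a log2 signal below 7, and the probe that lies outside the grey range is the *SIRT7* probe that was dim in LN.

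The probes past 1.25-fold were all among the dimmer ones. Of the 24 probes, 17 had a log2 signal of at least 7 in HN, and these ran from -0.20 to 0.15 with none past 1.25-fold. The other 7 ran from -0.76 to 0.34, with 4 past it. The same held over the array, where 42.9% of the probes with a mean log2 signal between 2 and 4 were past 1.25-fold, against 15.0% between 6 and 7, 9.66% between 8 and 9 and 5.15% between 13 and 14. Of the 5 sirtuins with probes on both sides of a log2 signal of 7, the dim mean was farther from 0 than the bright one in 4, namely *SIRT2* (-0.39 and -0.15), *SIRT5* (-0.18 and 0.06), *SIRT6* (0.34 and -0.02) and *SIRT7*. The exception was *SIRT1*, with 0.00082 and -0.02.

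In the gene order of the current bovine assembly, used for order only, *SIRT6* and *NMRK2* lie near each other on the same chromosome with 10 annotated genes between them. Of these, 5 had a value, none of them past 1.25-fold, and their median was 0.03. The genes of the pair themselves had values of 0.16 and 0.15, but that of *SIRT6* came from its dimmer probe, and by its bright probe it was -0.02.

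To place these genes in their pathways, 88 other genes of NAD metabolism and sirtuin biology were listed, of which 68 were on the array under these symbols and 64 gave a value. In the LN pool 24 were higher and 40 lower, with a median of -0.04, and 7 were past 1.25-fold, all lower (10.9%, against 18% over all genes in either direction and 9.11% lower). Of these 7, 6 had a mean log2 signal below 6 in LN, and the values of 5 rested on 1 probe. After the normexp correction, 1 of them, *MLYCD*, was past 1.25-fold.

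Around the salvage of NAD, no gene with a value was past 1.25-fold, though 3 of the 5 other salvage genes and 4 of the 6 of transport and precursor handling were on the array. *NMNAT2* was nearest, at -0.30 (1.23-fold, both probes lower), and the probes of *NT5E* ran from -0.56 to 0.71. Of the other salvage enzymes, *NAPRT*, which starts the route from nicotinic acid, was the brightest, at 10.09 in HN and 9.94 in LN (-0.16), and the 3 genes with a value had a median of -0.16. The 4 genes of transport and precursor handling, led in signal by the nucleoside phosphorylase *PNP* (12.34 and 12.36, 0.02), had a median of -0.03, and the 4 of NADP and hydride handling, led by the epimerase *NAXE* (10.80 and 10.91, 0.11), had a median of 0.0031. Of the route from tryptophan, 8 genes were on the array and 5 gave a value, while the single probes of *TDO2*, *IDO1* and *KMO*, which encode early oxygenases, were not well above background on either array. Of the 5 genes with a value, 4 were lower in LN. *KYNU*, which encodes kynureninase, was the 1 past 1.25-fold, and its single dim probe fell by 0.59 from 3.69 in HN. Its value was -0.99 in the authors' normalized values and -0.14, within 1.25-fold, after the normexp correction. The brightest was *QPRT*, at 8.21 and 8.18 (-0.03), which encodes the enzyme that makes nicotinic acid mononucleotide from quinolinate.

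Genes of other reactions that use NAD did not differ past the threshold either. This list had 9 genes with a value, which were the NAD-consuming poly(ADP-ribose) polymerase family and *CD38*, an NAD glycohydrolase, together with *PARG*, whose enzyme degrades poly(ADP-ribose) and does not itself consume NAD. They ran from -0.22 for *PARP14* to 0.15 for *TNKS*, with 4 higher, 5 lower and a median of -0.02. The brightest, *PARP16*, measured 9.12 in HN and 9.17 in LN (0.05). Of the genes for proteins that bind SIRT1, *RPS19BP1*, which encodes its activator AROS, measured 12.67 and 12.65 (-0.02). The 2 probes of *CCAR2*, which encodes its inhibitor DBC1, lay on both sides of 0, at -0.55 and 0.16, and the first was dim in LN and gives a limit, so no direction is given for the gene.

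Among proteins that sirtuins deacylate, the nuclear and cytosolic substrates had a median of 0.10 over 7 genes, with 4 higher and 3 lower. *PCK1*, which encodes the cytosolic phosphoenolpyruvate carboxykinase of gluconeogenesis, was the 1 past 1.25-fold, at 5.16 in HN and 4.67 in LN (-0.49, 1 of its 3 probes above background). With the dim probes kept it was -0.09, with probes positive and significant against background -0.18, and after the normexp background correction -0.18, none of them past 1.25-fold. The brightest was the acetyl-CoA synthetase *ACSS2*, at 9.84 and 10.01 (0.17).

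The mitochondrial substrates had a median of -0.12 over 11 genes, with 3 higher and 8 lower, and 3 of the lower ones past 1.25-fold (27.3%, against 9.11% of all genes lower past it and 50.7% lower at all). These 3 were read by probes with a log2 signal below 6, the range in which more of all probes were past 1.25-fold. *MLYCD*, which encodes malonyl-CoA decarboxylase, a target of SIRT4, had the greatest difference of the listed genes, from 5.73 in HN to 4.52 in LN (-1.22, 2.32-fold lower in LN), read by 1 of its 2 probes. Its value was -0.44 after the normexp correction. *CPS1*, which encodes the carbamoyl phosphate synthetase of the urea cycle, a target of SIRT5, measured 4.85 and 4.41 (-0.43, 1 of 3 probes). *PPIF*, which encodes cyclophilin D of the permeability transition pore, measured 4.12 and 3.72, with both probes lower (-0.50 and -0.32). After the normexp correction *CPS1* was -0.04 and *PPIF* -0.08, neither past 1.25-fold. All 3 were dim, and the brightest substrate, the complex I subunit *NDUFA9*, measured 12.54 and 12.49 (-0.05).

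**Figure D4:**
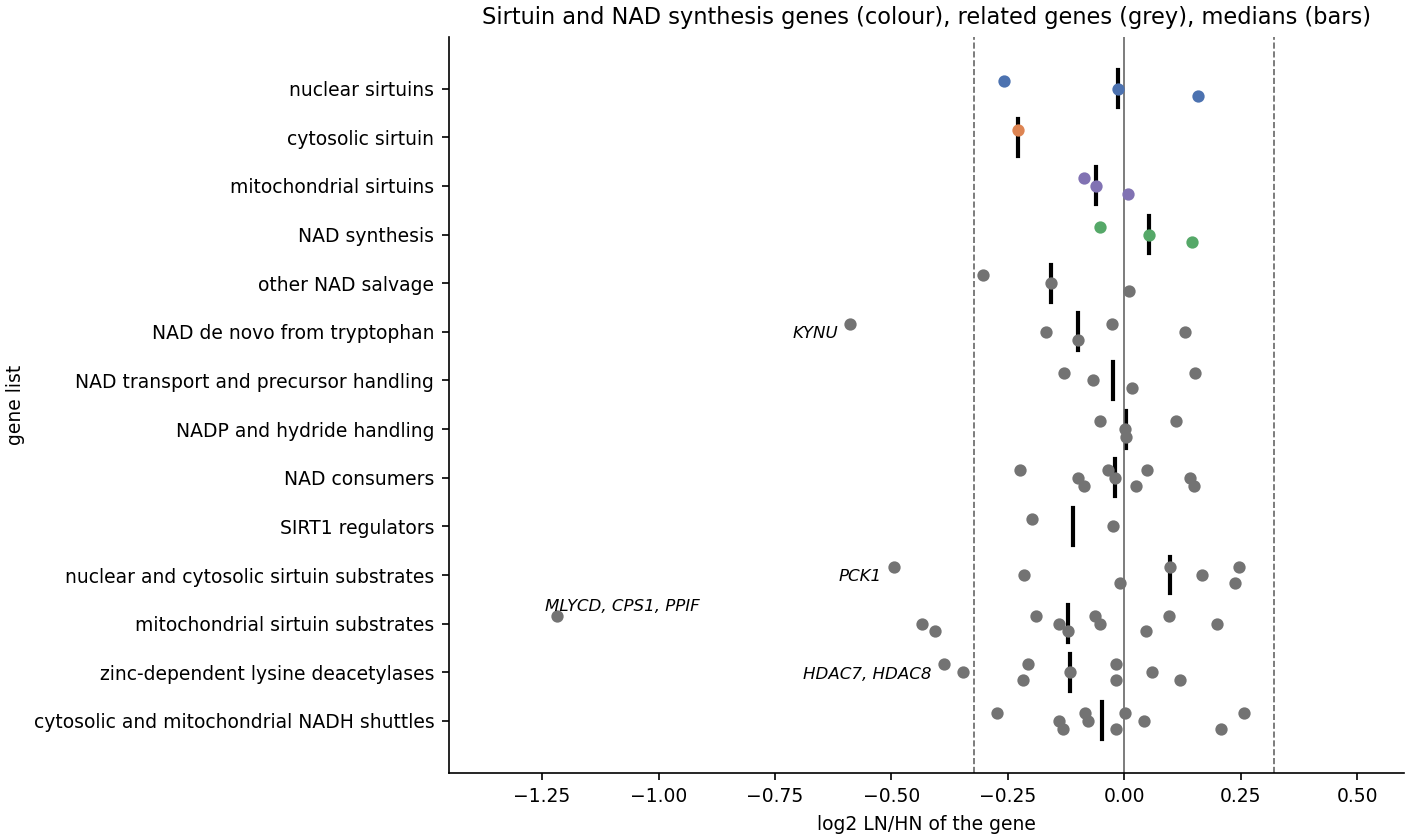
Log2 LN/HN (x axis) of the sirtuin and NAD synthesis genes (colours) and of genes in related lists (grey), 1 row per list (y axis), with the median of each list as a black bar and the 1.25-fold threshold as dashed lines. No coloured point is past a dashed line, and the 7 labelled grey points lie to the left, lower in LN.

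The zinc-dependent lysine deacetylases, which remove acetyl groups without NAD, had a median of -0.12 over 9 genes, with 2 higher and 7 lower. This median was 0.0032 after the normexp correction, -0.02 by the brightest probe of each gene and -0.0016 with only probes of log2 signal of at least 6, so its direction depended on the processing. *HDAC7*, a class IIa deacetylase that represses transcription in muscle and endothelial cells, was lower past 1.25-fold, at 6.39 in HN and 6.00 in LN. Its 2 probes gave -0.39 and -0.38, while the endothelial markers given above had a median of -0.23. *HDAC8* measured 4.56 and 4.21 with a single dim probe (-0.35), and the brightest, *HDAC5*, measured 11.10 and 10.89 (-0.21). The 10 genes of the NADH shuttles and of lactate dehydrogenase, which carry the electrons of cytosolic NADH to the mitochondria or to lactate, had a median of -0.05 with none past 1.25-fold. The brightest was *LDHA*, at 15.74 in HN and 15.60 in LN (-0.14).

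The gene values were recomputed under 12 other settings of normalization, background correction and probe choice, of which the authors' normalized values gave none for *NMRK2*. Not every setting could change every gene, because some act only on dim probes, on flagged spots or on genes with several probes. All settings reprocess the same arrays, so a shared direction among them is not independent evidence. Counting only the settings that changed the value, *SIRT2* and *SIRT4* were lower in LN in 7 of 7, *NMNAT1* was lower in 6 of 6, *NAMPT* was higher in 7 of 7 and *NMRK2*, with its single bright probe, was higher in 4 of 4. *SIRT2* ran from -0.25 to -0.09 and *NAMPT* from 0.03 to 0.08. *SIRT1*, *SIRT3*, *SIRT5*, *SIRT6* and *SIRT7* changed sign in at least 1 setting, *SIRT7* running from -0.36 to 0.13.

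**Figure D5:**
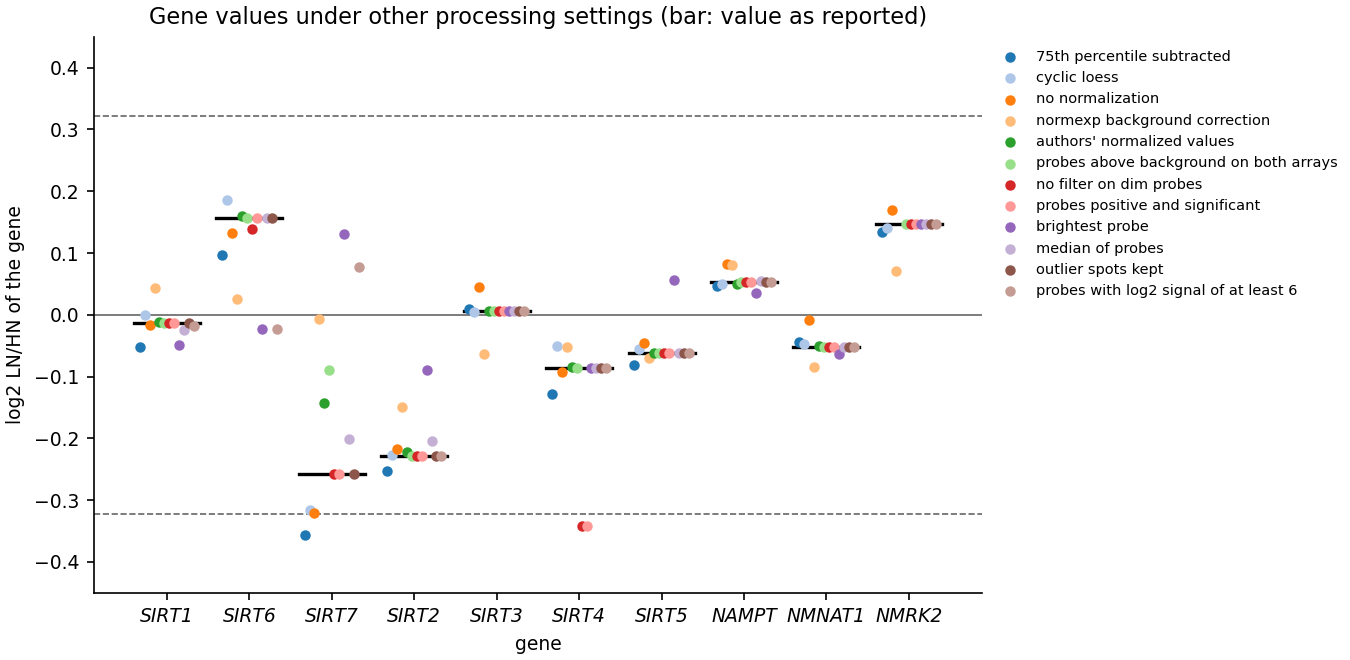
Log2 LN/HN (y axis) of each gene (x axis) under the 12 other processing settings (coloured points), with the value as reported as a black line and the 1.25-fold threshold as dashed lines. The points of *NAMPT*, *NMNAT1* and *NMRK2* stay close to their line and on 1 side of 0, partly because several settings leave them as they are, those of *SIRT7* spread widest and cross 0, and the points past the threshold belong to *SIRT7* (1 setting) and *SIRT4* (2 settings).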

How the data were processed

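The authors deposited, for each array, spot intensities from Agilent Feature Extraction 11.0.1.1, background-corrected but not normalized between arrays, and a table of normalized log2 values. The log2 scale of that table, deposited by the authors, was judged from its values. Here, log2 intensities of the 43803 non-control spots were quantile normalized with limma 3.58.1 in R 4.3.3, the method but not the tool of the authors, who used GeneSpring GX. The 13 spots with outlier flags were removed, which included no spot of the genes reported, and spots of a probe were averaged (Python 3.11.15, pandas 2.3.3, numpy 2.4.6; figures with matplotlib 3.10.9). Probes well above background in HN, LN or both were used. For a probe dim in 1 of them, its dim value was raised to the array's lowest signal called well above background (log2 2.27 in HN, 2.82 in LN) unless already higher. A gene value is the mean over its probes. Probes were named by accession through the ARS-UCD2.0 gene table (26742 of 43652 matched). Unmatched probes were grouped by their transcript, which was counted as a gene in all totals and shares. The array's older build allowed no coordinates, and no sequences are shown. Signals of different probes were not compared as abundance. All 10 genes are named with every probe, and of the related lists each gene past 1.25-fold and the brightest gene, and other genes were picked after their values were seen. The genes and lists were chosen with earlier results of these data known. The steps were tested on simulated data. The number of arrays limits the precision.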

Additional observations from a re-analysis of the deposited data

How the results depend on the processing

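The count of the 10 genes past 1.25-fold, 0 as reported, was 1 with scaling by the 75th percentile (*SIRT7*, -0.36), and 1 both without a filter on dim probes and with probes only positive and significant against background (*SIRT4*, -0.34 in each, through a probe not well above background). It was 0 in the other settings. By its brightest probe, the cytosolic sirtuin *SIRT2* was -0.089, against -0.23 as reported. The count of related genes past 1.25-fold, 7 as reported, was 1 after the normexp correction of the median spot signals (offset 50; *MLYCD*, -0.44) and 1 with only probes of log2 signal of at least 6 on both arrays (*HDAC7*; 52 genes had a value), a setting chosen after seeing the data. In the other settings it was between 6 and 9, and every gene counted was lower in the LN pool. The cause of these shifts was not tested. The medians of the compartments were too small for a settled direction: that of the nuclear sirtuins, -0.01 as reported, was 0.03 after normexp, that of the mitochondrial sirtuins, -0.06, was 0.0069 by the brightest probe, and that of the NAD synthesis genes, 0.05, was 2.5e-05 in the authors' values, which gave only 2 of the 3 genes. The median of the zinc-dependent deacetylases, -0.12 as reported, was 0.0032 after normexp, -0.02 by the brightest probe and -0.0016 with probes of log2 signal of at least 6. Over all genes, 3512 were past 1.25-fold as reported, 705 after normexp, 6843 without a filter, 6902 with positive and significant probes and 1150 with probes of log2 signal of at least 6. The split was 1191 higher and 2693 lower with the 75th percentile, against 1731 and 1781 as reported, and the median of all genes was then -0.04. The software's error of 10.3% and 10.5% of the signal (medians, HN and LN) limits what a probe can show. No paired analysis was possible because each group has 1 array. No replicate could be left out for the same reason.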
